A study of Mus musculus with 12 samples.

Results

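H3K27me3 was compared between the wild-type cells of both experiments of the study, which differ in antibody and sequencing platform. The members are the 4 wild-type peak lists out of 10 deposited lists (12 samples in all, of which 2 are input DNA), chosen by their labels, with exact duplicate lines dropped and sequence restricted to the 19 autosomes. The lists held 81153 and 80524 peaks in experiment 1 and 18229 and 13384 peaks in experiment 2. Peaks of replicates 1 and 2 that overlapped were joined into 45953 regions in experiment 1 and 3936 regions in experiment 2. A region was called shared if it overlapped a region of the other experiment by at least 1 bp, and private otherwise.

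All 4 libraries came from cells that the labels call C2 iMEFs, immortalized mouse embryonic fibroblasts, with the genotype Ezh2 WT/WT. The methods describe a single clone of c-Myc iMEFs with a floxed and a deleted allele of Ezh2 and ROSA26-CreERT2, a recombinase switched on by 4-hydroxytamoxifen. They do not name C2, and whether the wild-type cells carried the deleted allele was not stated. In experiment 1 the precipitating antibody was Active Motif 39155 and 75-bp reads were sequenced on a SOLiD 5500. In experiment 2 it was clone 7b11 and 100-bp reads were sequenced on a HiSeq 2500. The aligner differed as well in the main passage of the methods (Bowtie against Bowtie 2, where another passage has Bowtie 2 for both). The deposited peak lists also differ in form, as given below. Antibody, platform, read length, aligner and the making of the peak lists therefore cannot be told apart. The knockout of both experiments (Ezh2 -/-) and the Ezh1 and Ezh2 pre-rescue conditions of experiment 2, called rescues here (1 list each, retroviral Flag-Ezh1 or Flag-Ezh2, clone 7b11), served only as further readouts. The study calls its H3K27me3 profiles biological replicates, and neither it nor the labels says whether these were separate cultures of the line, so p-values measure only the spread between these samples. Of 20 fibroblast genes, none had a peak within 2500 bp of its transcription start site in any wild-type library, and expression was not measured here.

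H3K27me3 is deposited by PRC2, whose catalytic subunit is EZH2 or EZH1, and marks the silent developmental genes of a cell type. The mark is read by chromodomain proteins of PRC1. It lies in broad domains over some loci and in short stretches over others, and Polycomb target promoters are often rich in the dinucleotide CpG.

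The sequences at the middle of 6 regions are shown because GC content set the experiments apart while CpG was scarce in all 4 lists. They are given on the plus strand of mm9, 300 bases each, with each CpG in capitals. For shared and both kinds of private regions, the first is from the widest region and the second from a region of 700 to 3000 bp with the GC content nearest to the median of its kind, windows with untranslated exon sequence being passed over. The widest shared region of experiment 2 (5900 bp) lay within Slc4a1, the red cell anion exchanger, and its middle, chr11:102220701-102221000, was intronic with 58.7% GC and 5 CpG.
Shared, Slc4a1: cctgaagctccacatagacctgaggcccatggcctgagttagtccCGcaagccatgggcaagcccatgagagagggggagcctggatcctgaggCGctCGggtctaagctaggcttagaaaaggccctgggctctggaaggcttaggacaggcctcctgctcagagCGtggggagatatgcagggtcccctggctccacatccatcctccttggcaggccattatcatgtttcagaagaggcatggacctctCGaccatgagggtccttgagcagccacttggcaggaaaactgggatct
A shared region of 1050 bp lay in an intron of Rassf5, an effector of Ras, and its middle was chr1:133111276-133111575, with 50% GC and 1 CpG.
Shared, Rassf5: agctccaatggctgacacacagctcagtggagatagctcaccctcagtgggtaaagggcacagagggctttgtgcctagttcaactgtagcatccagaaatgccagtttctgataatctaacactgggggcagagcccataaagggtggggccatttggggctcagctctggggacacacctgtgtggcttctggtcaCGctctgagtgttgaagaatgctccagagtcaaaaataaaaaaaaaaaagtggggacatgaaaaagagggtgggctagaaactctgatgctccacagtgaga
The widest private region of experiment 1 (74276 bp) overlapped E130018O15Rik, and its middle, chr5:35693813-35694112, was intergenic with 49.7% GC and 1 CpG.
Experiment 1 private, near E130018O15Rik: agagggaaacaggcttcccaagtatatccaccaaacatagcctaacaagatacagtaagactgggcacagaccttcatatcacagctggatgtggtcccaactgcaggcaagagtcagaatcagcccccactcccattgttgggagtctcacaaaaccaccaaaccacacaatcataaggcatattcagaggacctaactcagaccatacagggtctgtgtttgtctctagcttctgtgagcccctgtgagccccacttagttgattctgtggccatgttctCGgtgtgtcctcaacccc
A private region of 2018 bp of experiment 1 lay 5655 bp from the vomeronasal receptor gene Vmn1r41, and its middle, chr6:89689659-89689958, had 42.7% GC and 3 CpG.
Experiment 1 private, near Vmn1r41: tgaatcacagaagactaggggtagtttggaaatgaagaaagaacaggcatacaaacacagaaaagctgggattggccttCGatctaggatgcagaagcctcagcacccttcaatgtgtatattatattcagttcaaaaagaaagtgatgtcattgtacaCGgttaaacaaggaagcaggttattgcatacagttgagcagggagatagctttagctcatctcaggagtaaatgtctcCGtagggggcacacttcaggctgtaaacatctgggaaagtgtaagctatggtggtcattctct
The widest private region of experiment 2 (4800 bp) was intronic in Plxdc1, which encodes a plexin-domain protein, and its middle, chr11:97838551-97838850, had 46.7% GC and 3 CpG.
Experiment 2 private, Plxdc1: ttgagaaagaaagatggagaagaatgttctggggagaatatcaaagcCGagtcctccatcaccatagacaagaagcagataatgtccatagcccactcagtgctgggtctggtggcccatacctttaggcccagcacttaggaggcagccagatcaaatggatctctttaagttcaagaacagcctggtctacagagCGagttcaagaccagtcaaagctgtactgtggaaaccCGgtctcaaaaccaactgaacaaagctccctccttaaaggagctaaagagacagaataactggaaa
A private region of 800 bp of experiment 2 lay 18510 bp from Gtsf1l, and its middle, chr2:162932351-162932650, was intergenic with 55.0% GC and 2 CpG.
Experiment 2 private, near Gtsf1l: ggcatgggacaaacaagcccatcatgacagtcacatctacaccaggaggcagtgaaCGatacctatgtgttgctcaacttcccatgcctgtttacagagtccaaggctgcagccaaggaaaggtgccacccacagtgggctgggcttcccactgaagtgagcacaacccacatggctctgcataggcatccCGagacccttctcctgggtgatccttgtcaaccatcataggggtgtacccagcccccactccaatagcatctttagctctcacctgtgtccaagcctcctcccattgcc

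Far more of the genome was called in experiment 1. The 2 lists of experiment 1 spanned 139.5 and 174.4 Mb, or 5.83% and 7.29% of the autosomes, whereas those of experiment 2 spanned 14.85 and 11.24 Mb (0.620% and 0.470%). Covered sequence was 157 ± 24.7 Mb in experiment 1 and 13.0 ± 2.55 Mb in experiment 2 (mean ± SD, n = 2 each), a ratio of 12, and the number of peaks differed 5.11-fold. Median widths were 820 and 941 bp in experiment 1 and 750 bp in both libraries of experiment 2. The widest peaks reached 85854 and 156492 bp in experiment 1 but 4450 and 5000 bp in experiment 2. The lists also differed in form. All peak starts of experiment 2 fell on multiples of 50 bp, against 1.94% and 2.00% of those of experiment 1. No peak of experiment 2 was under 550 bp, whereas 33.5% and 30.6% of the peaks of experiment 1 were shorter than that. Of 6 measures compared per library (number, covered sequence, median width, promoter share, GC content and CpG ratio), all 6 separated the experiments without overlap, and each gave p = 0.33 in a two-sided exact permutation test, also after Benjamini-Hochberg adjustment, which is the smallest p that 2 against 2 libraries allow. With peaks of at least 550 bp the libraries overlapped in CpG ratio, and the other 5 measures stayed apart.

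Most peaks of experiment 2 lay where experiment 1 had peaks too. Of the peaks of experiment 2 replicate 1, 67.2% met a peak of experiment 1 replicate 1 and 69.7% one of replicate 2, and for replicate 2 the shares were 67.1% and 67.9%. Yet only 22.2% (95% Wilson interval 21.6 to 22.8) of the peaks of replicate 1 of experiment 2 met a peak of its own replicate 2, and 30.2% (29.4 to 31.0) in the other direction. The replicates of experiment 1 met each other at 78.3% and 64.1% of their peaks. These shares depend on how much the target list covered, from 0.470% of the autosomes in experiment 2 replicate 2 to 7.29% in experiment 1 replicate 2. As bases shared over the bases in either list, the replicates of experiment 2 reached 14.0%, those of experiment 1 57.4%, and pairs across experiments 3.86% to 6.10%. Across experiments this measure is held low by the 12-fold difference in covered sequence, so it does not rank the pairs by agreement. Of the bases of experiment 2 peaks, 59.4% to 63.9% lay under an experiment 1 list. Under the other replicate of experiment 2, a far smaller list, 21.6% and 28.6% did. Peaks of experiment 2 replicate 1 that were missing from replicate 2 lay in an experiment 1 region in 64.8% of 14177 cases, and those present in both in 77.1% of 4052. For replicate 2 the values were 62.0% of 9346 and 77.0% of 4038. In both libraries, then, most peaks without a counterpart in the other replicate still lay in experiment 1 regions. Intervals cover counting error only, and no p-value is given over regions, which are not replicates.

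**Figure D1:**
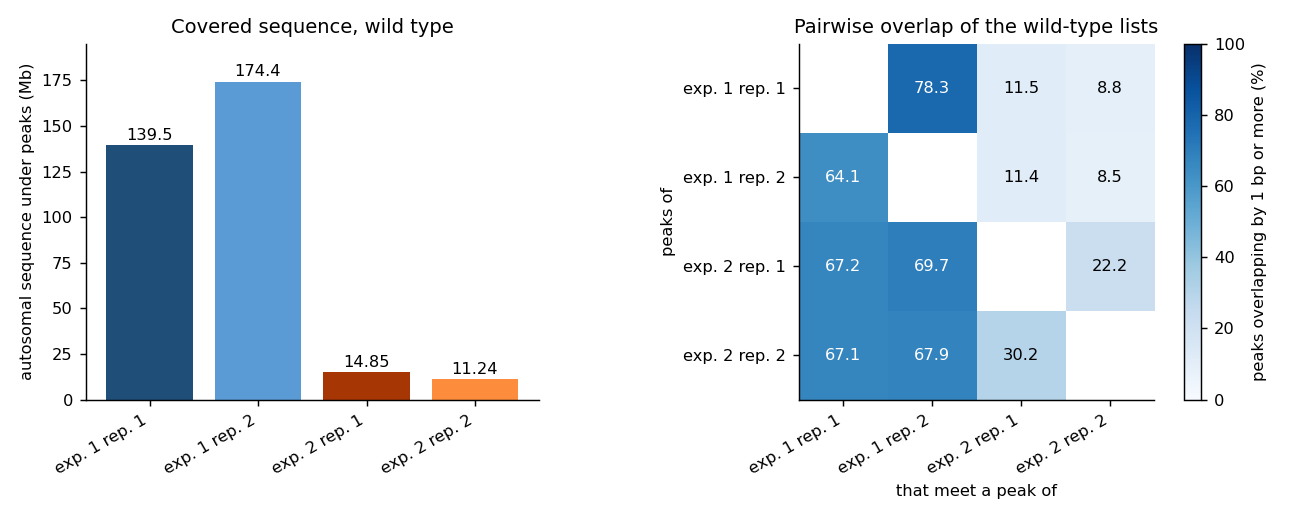
Left, autosomal sequence under peaks (Mb) in the 4 wild-type libraries. Right, percent of the peaks of each library (rows) that overlap a peak of another library (columns) by 1 bp or more; peaks of experiment 2 met experiment 1 in 67.1% to 69.7% of cases and the other replicate of experiment 2 in 22.2% and 30.2%.

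The overlap of reproducible regions was lopsided. Of 3936 regions of experiment 2, 3046 (77.4%, 95% Wilson interval 76.1 to 78.7) were shared and 890 were private. Of 45953 regions of experiment 1, 2442 (5.31%, 5.11 to 5.52) were shared and 43511 were private. With the list of replicate 2 or replicate 1 of experiment 2 alone in place of the reproducible regions, 13.8% or 18.1% of experiment 1 regions were shared, and with experiment 1 peaks of one replicate the share was 3.23% to 3.38% of peaks. Of the shared experiment 2 regions, 2380 (78.1%) lay entirely within an experiment 1 region. Of the shared experiment 1 regions, 2035 held 1 experiment 2 region and 407 held several, up to 14, and the median share of an experiment 1 region covered was 16.8%. Experiment 2 regions thus appeared as short stretches inside broad experiment 1 regions.

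The Hoxb cluster on chromosome 11 shows this pattern. HOX genes encode the homeobox factors that set position along the body axis. Between 60 kb upstream and 140 kb downstream of the start of Hoxb13, experiment 1 had 16 and 6 peaks covering 172 and 179 kb, joined into 4 regions, with the parts of peaks past the edges of the window included. Experiment 2 had 46 and 32 peaks covering 54.4 and 39.2 kb, joined into 24 regions. The region around Hoxb13 and Ttll6 (chr11:96005054-96101670, 96617 bp) was 95.4% and 99.5% covered in the libraries of experiment 1 and 28.8% and 18.9% in those of experiment 2, with 12 experiment 2 regions inside.

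**Figure D2:**
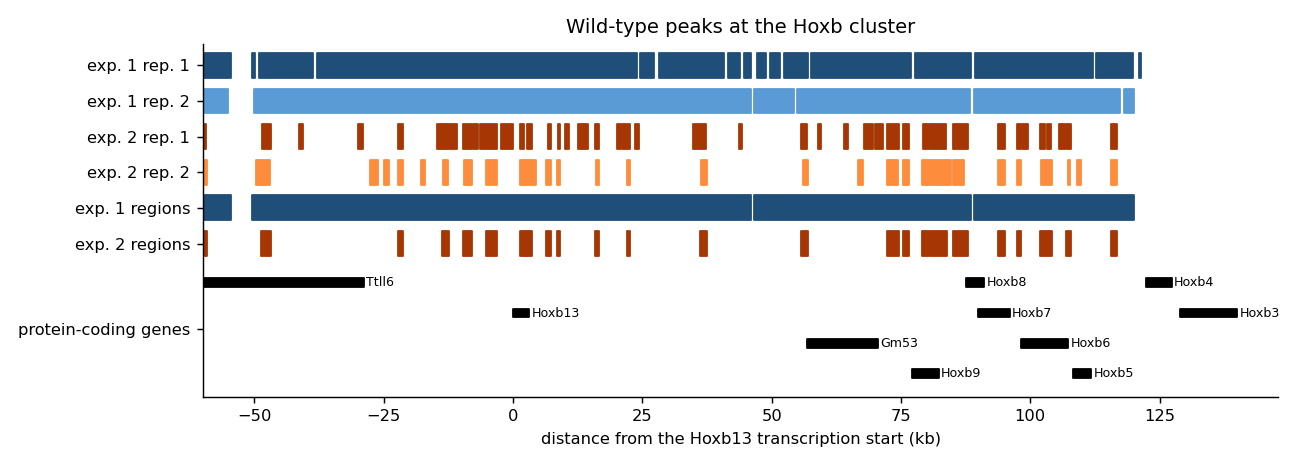
Peaks of the 4 wild-type libraries, reproducible regions of both experiments and protein-coding genes by distance from the Hoxb13 transcription start (kb). Experiment 1 peaks formed 4 nearly continuous regions, and experiment 2 peaks formed 24 short regions over the same stretch.

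The widest shared region (156492 bp, chr11:43806004-43962495) overlapped no protein-coding gene, the nearest being the adrenergic receptor gene Adra1b at 91291 bp. It was 93.0% and 100% covered in experiment 1 and 8.75% and 9.30% in experiment 2, which had 13 peaks in each library there. Within Skap1, which encodes an adaptor of T cells, a region of 130795 bp (chr11:96383109-96513903) was 94.6% and 100% covered in experiment 1 and 19.4% and 10.9% in experiment 2. At Mcf2l, a guanine nucleotide exchange factor, the region spanned 101553 bp (chr8:12870570-12972122), with 10.5% and 6.55% covered in experiment 2. Around Irf8, a transcription factor of myeloid and B cells, it spanned 96230 bp (chr8:123249128-123345357), with 10.6% and 12.6%. These regions were built from experiment 1 peaks and picked for their width there, which fixes a high coverage in experiment 1, so that their coverage in experiment 2 is the measurement. The 5 widest private regions of experiment 1 were not empty of experiment 2 peaks either. The widest, near E130018O15Rik (chr5:35656825-35731100), held 6 peaks of each experiment 2 library over 6.19% and 6.66% of its length, none overlapping between replicates. That at the homeobox gene Evx1 next to the Hoxa cluster (55096 bp, chr6:52211183-52266278) held 5 and 3 such peaks. Over all experiment 1 regions, 8330 met a peak of experiment 2 replicate 1 and 6337 one of replicate 2. Of the 3510 that met both, 1129 met them at positions that did not overlap, and 11157 (24.3%) met at least 1 of the libraries.

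Wide experiment 1 regions were more often shared, and so were GC-rich ones. The median width was 7376 bp for shared and 2065 bp for private regions of experiment 1, a ratio of 3.57. Computed on the peaks of each library against the regions of experiment 2, the ratio was 5.49 in replicate 1 and 6.33 in replicate 2. Of regions under 1 kb, 0.954% were shared, rising over the width classes to 22.6% of those of 10 to 20 kb and 48.5% (377 of 777) of those of 20 kb or more. A wide region meets another more easily. The share of bases under experiment 2 regions went from 0.747% to 4.46% between the narrowest and the widest class. The cause of the rise with width was not tested. If 50% of the experiment 1 region had to be covered, the ratio turned to 0.819, since few wide regions were covered that far. In experiment 2 the median was 1150 bp for shared and 1000 bp for private regions. Of its regions under 1000 bp 68.3% were shared, and of those of 2000 bp or more 88.6%.

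Peaks of experiment 2 were richer in GC. The median GC content of the middle 500 bp of a peak was 44.6% and 44.2% in the libraries of experiment 1 and 47.4% and 48.8% in those of experiment 2, against 41.8% in 478711 windows of the same length across the autosomes. The experiments differed by 3.7 points and did not overlap (44.4 ± 0.28% and 48.1 ± 0.99%, mean ± SD, n = 2 each, exact permutation p = 0.33, the smallest possible). The ratio of observed to expected CpG was low and alike in the 4 libraries, 0.172 and 0.169 against 0.173 and 0.178, with 0.157 in the genome windows. Shared regions of experiment 1 had a median GC of 47.6% and private ones of 44.4% in the middle 500 bp, and over whole regions the medians differed by 3.33 points. Per library the difference of shared minus private peaks was 3.22 and 3.55 points. It was 1.95 points when replicate 1 of experiment 2 alone defined what was shared. Only 1.43% of experiment 1 regions below 40% GC were shared, against 10.6% of those of 48 to 52% and 12.2% of those above. In experiment 2 the medians were 48.7% for shared and 49.4% for private regions, and per library the difference had no common sign (0.242 and -0.125 points).

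The dependence on GC was seen at every width, and that on width at every GC content. Among regions of 20 kb or more, 22.8% (13 of 57) were shared below 40% GC and 75.0% (24 of 32) at 52% or above. Among regions of 2 to 5 kb the shares were 0.968% and 11.2%, and among those under 1 kb 0.233% and 3.27%. Each experiment 2 library showed it alone. Between the lowest and the highest GC class, the share of experiment 1 region bases under its peaks rose from 2.53% to 9.85% for replicate 1 and from 1.3% to 9.80% for replicate 2.

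**Figure D3:**
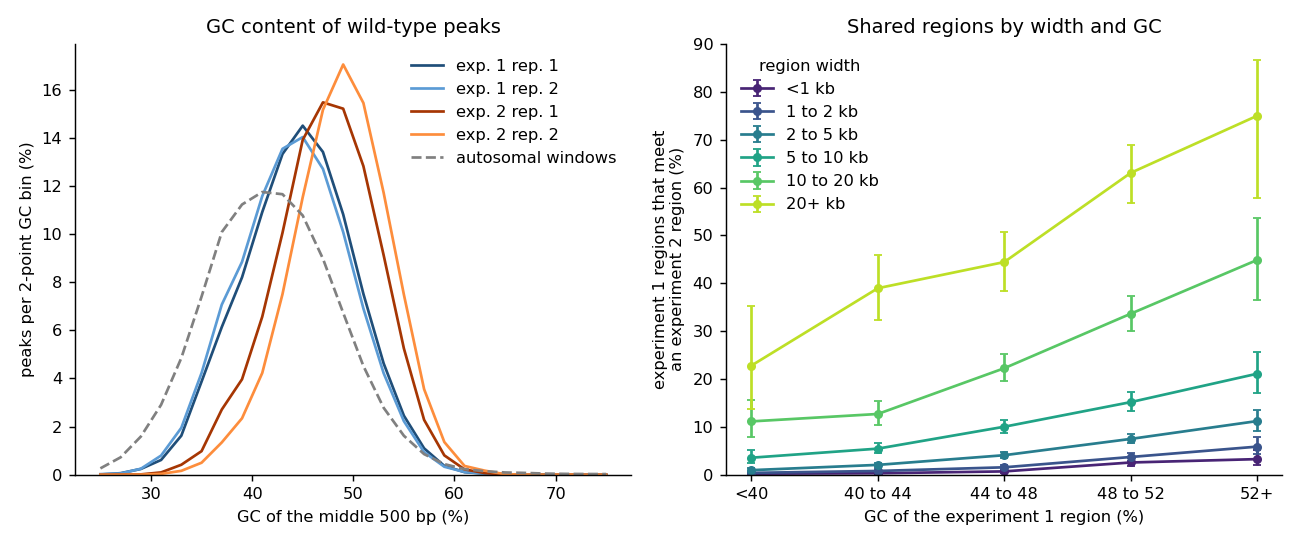
Left, distribution of the GC content of the middle 500 bp of wild-type peaks (percent of peaks per 2-point bin) for the 4 libraries and for autosomal windows (dashed); medians were 44.6% and 44.2% in experiment 1 and 47.4% and 48.8% in experiment 2. Right, percent of experiment 1 regions that met an experiment 2 region, by GC content and width of the region (lines); bars are 95% Wilson intervals, and the share rose to 75.0% for regions of 20 kb or more with 52% GC or above.

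Shared regions lay somewhat more often at promoters. A promoter was taken as 2500 bp on either side of a transcription start, and a region was placed by its midpoint. Promoters held 9.58% of shared and 7.03% of private regions of experiment 1 and 12.9% and 10.6% of those of experiment 2, compared with 4.14% of autosomal windows. Per library, shared peaks exceeded private ones by 4.29 and 3.87 points in experiment 1 and by 3.20 and 2.32 points in experiment 2. Among reproducible regions the excess in experiment 1 was 2.55 points. It was 1.16 points without replicate 2 of experiment 2, 1.17 points when promoters reached 1000 bp each way and 16.8 points when any overlap with a promoter counted. The excess in experiment 2 (2.37 points) turned to -1.79 points with peaks of at least 1000 bp and shrank to 0.142 points with promoters of 1000 bp on either side. Most regions of any kind were intergenic or intronic. Intergenic shares were 49.6% for shared and 57.2% for private regions of experiment 1, and 47.5% and 54.5% in experiment 2, around the 56.4% of the genome windows. Introns held 34.0% and 30.9%, and 32.9% and 29.6%. Per list, promoters held 6.62% and 5.98% of the peaks in experiment 1 and 8.54% and 9.83% in experiment 2.

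At CpG-rich promoters peaks were scarce at the start site itself in both experiments. Promoters with an observed to expected CpG ratio over 0.6 within 500 bp of the start were called CpG-rich, and 1780 of them were marked in experiment 1, that is, met an experiment 1 region. In these, 63.9% and 67.3% lay under a peak 1500 bp upstream in the libraries of experiment 1, but 9.49% and 11.8% at the start itself. In experiment 2 the values were 11.1% and 7.58% at the same upstream position and 0.674% and 0.787% at the start. The drop was present in all 4 libraries. At the 2676 CpG-poor promoters marked in experiment 1 it was shallow, with 38.3% and 46.4% at the start and at most 51.5% and 58.0% within 2500 bp in experiment 1, and with 4.93% and 3.89% and at most 6.24% and 5.23% in experiment 2. Over all 9950 CpG-rich promoters, the highest share within 2500 bp exceeded that at the start 6.86-fold and 5.83-fold in experiment 1 and 19.3-fold and 12.6-fold in experiment 2, the last pair resting on few promoters.

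**Figure D4:**
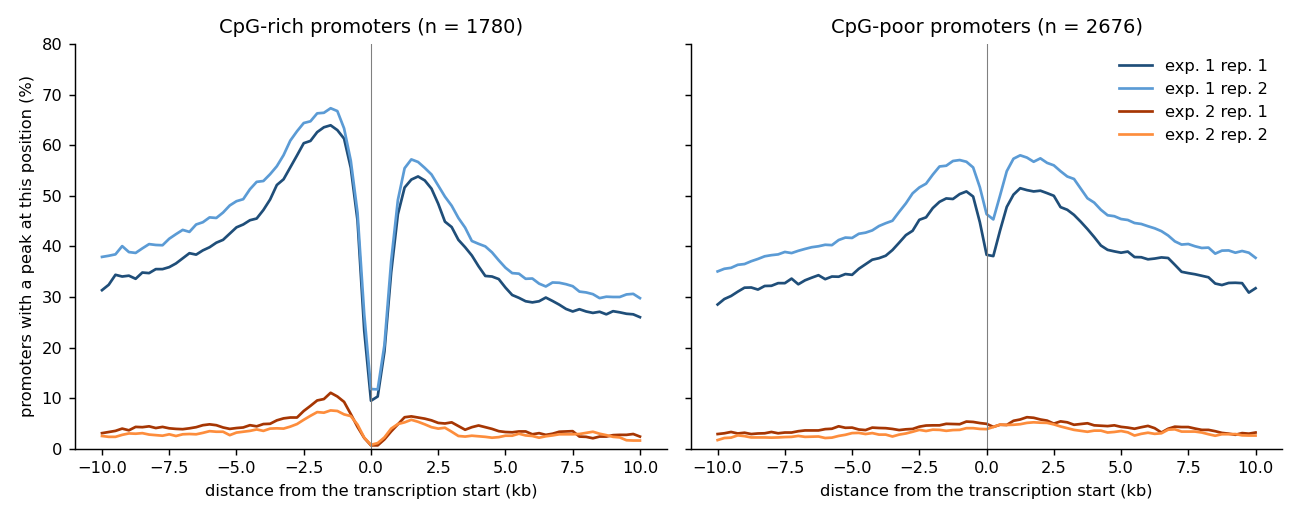
Percent of promoters marked in experiment 1 with a peak at each distance from the transcription start (kb) in the 4 wild-type libraries, for 1780 CpG-rich and 2676 CpG-poor promoters. The CpG-rich profile falls at the start in all 4 libraries, from 63.9% and 67.3% to 9.49% and 11.8% in experiment 1 and from 11.1% and 7.58% to 0.674% and 0.787% in experiment 2.

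Most genes marked in the wild type of experiment 2 were also marked in that of experiment 1. Of 21418 autosomal protein-coding genes, experiment 1 marked 4456 (20.8%) and experiment 2 marked 555 (2.59%). Both experiments marked 470 genes (2.19%), experiment 1 alone 3986 (18.6%) and experiment 2 alone 85 (0.397%). The genes in common were 84.7% of the experiment 2 genes and 10.5% of the experiment 1 genes. The count rests on the requirement of both replicates in experiment 2, as 1053 genes were marked in both experiments by replicate 2 and 1256 by replicate 1 taken alone, with 302 and 319 in experiment 2 alone. Without replicate 2 of experiment 1, 54 genes were marked in experiment 2 alone. Of the 3986 genes of experiment 1 alone, 1245 (31.2%) had a promoter peak in 1 or both libraries of experiment 2, against 2.58% of genes marked in neither. Of the 85 genes of experiment 2 alone, 34 had one in a library of experiment 1, as had 971 of the 16877 genes marked in neither. The share of experiment 1 genes also marked in experiment 2 rose with the width of the region at the promoter, from 6.97% below 5 kb to 25.1% at 20 kb or more. Promoter GC had medians of 58.2% in genes marked in both, 55.9% in experiment 1 alone, 58.0% in experiment 2 alone and 54.6% in neither.

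Over all protein-coding genes the background was 20.8% marked in experiment 1 and 2.59% in experiment 2, where both replicates had to overlap, and single experiment 2 libraries marked 1575 and 1355 of 21418. Developmental regulators were marked widely in experiment 1, and of these lists the HOX genes had the highest share also marked in experiment 2. Of 39 HOX genes, 24 were marked in experiment 1 and 14 of these, 58.3%, also in experiment 2, against 10.5% of all experiment 1 genes. The 14 genes rest on 12 experiment 2 regions, and neighbours in a cluster are not independent. Experiment 1 regions of the HOX list were wide, with a median of 28232 bp. Of all experiment 1 genes with a region of 20 kb or more, 25.1% were also marked in experiment 2. Single experiment 2 libraries had peaks at 15 and 12 HOX genes. Neural and ectodermal transcription factors were marked in 51 of 68 cases in experiment 1 (75.0%) and in 3 in experiment 2 (4.41%), with 10 and 9 in its single libraries. Mesoderm and endoderm factors gave 49 of 67 and 5, with 10 and 12 in the single libraries, and secreted developmental signals 40 of 66 and 4, with 16 and 10. Retention in these 3 lists was 5.88%, 10.2% and 10.0%, near the share of all genes. Of 46 blood and endothelial genes 30 were marked in experiment 1 and 5 in experiment 2, 4 of them in common, with 7 and 11 in its single libraries. Of 60 neuronal channel and receptor genes the counts were 24 and 2, with 4 and 6 in the single libraries. Epithelial genes had 21 and 1 of 40, and keratin genes 37 and 2 of 46, with 1 in common in each list, and the single libraries of experiment 2 had 5 and 4 epithelial and 8 and 5 keratin genes. Of 29 Polycomb genes, 8 were marked in experiment 1 and 3 in both, with 4 and 5 in the single libraries of experiment 2. Of 30 cell cycle inhibitor and tumor suppressor genes, 8 were marked in experiment 1 and 1 in both, and of 36 cell cycle genes 5 and 1. The single libraries had 2 and 3 of the inhibitor and suppressor genes and 2 and 1 of the cell cycle genes. Among 41 collagen genes 17 were marked in experiment 1 (41.5%), and among 90 cytochrome P450 genes 21 (23.3%, near the 20.8% of all genes). None of either was marked in both replicates of experiment 2 at overlapping positions, while its single libraries had peaks at 5 and 7 collagen and at 6 and 3 cytochrome P450 genes. Of 1081 olfactory receptor genes 71 were marked in experiment 1 and 5 in both, with 21 and 8 in the single libraries of experiment 2. Vomeronasal receptor genes (8 of 318), ribosomal protein genes (7 of 76), zinc finger genes named Zfp (28 of 333) and clustered protocadherin genes (1 of 24) were marked rarely in experiment 1, and of all these 1 zinc finger gene was marked in experiment 2, whose single libraries had 7 and 5 zinc finger genes, 1 and 1 vomeronasal and 2 and 0 ribosomal protein genes. None of 32 housekeeping genes was marked in either experiment, with 1 promoter peak in a single library of each.

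**Figure D5:**
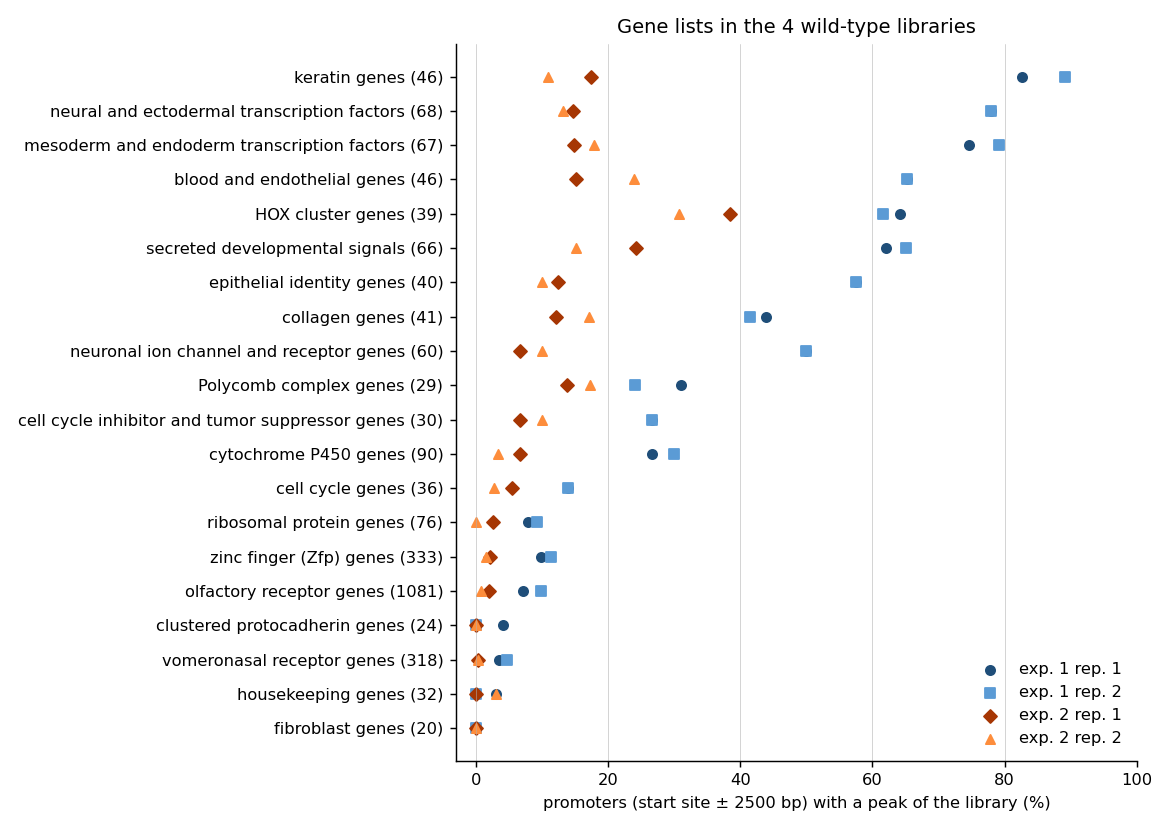
Percent of the autosomal genes of each list (number in brackets) with a peak within 2500 bp of the start site, for each of the 4 wild-type libraries. HOX genes had the highest shares in experiment 2 (38.5% and 30.8%), and keratin genes the highest in experiment 1 (82.6% and 89.1%).

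In the following, promoter coverage is the percent of the window of 2500 bp on either side of the start that lay under peaks, given for replicates 1 and 2. Among HOX genes, Hoxb13 had a coverage of 100% in both libraries of experiment 1 and of 65.0% and 24.6% in experiment 2. Hoxb8 had 85.1% and 81.7% against 58.6% and 40.6%. Hoxb5 (38.8% and 27.0%) and Hoxb6 (39.0% and 15.0%) were lower in experiment 2, with 100% in both libraries of experiment 1. All 4 of these genes were chosen as marked in both experiments, and 3 of them lay at the ceiling of 100% in experiment 1. The experiment 1 knockout covered 18.5% at Hoxb6 in replicate 1 and 12.1% at Hoxb5 in replicate 2, and 0% at these genes otherwise. Lhx2, a LIM-homeobox factor of forebrain and eye, had 80.5% and 80.9% in experiment 1 and 61.0% and 43.0% in experiment 2. Pax2, a factor of kidney and eye development, had 73.0% and 74.0% against 24.2% and 18.2%. At Pax2 the experiment 2 region (chr19:44827951-44829250) lay upstream of the start site, on the plus strand at 44830539. Vax2, a homeobox factor of the ventral eye, had 86.8% and 100% against 6.86% and 21.9%.

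Sox18, an endothelial factor, had the highest coverage of the mesoderm and endoderm factors named here, with 45.1% and 70.0% in experiment 2, beside 82.1% and 85.6% in experiment 1. Its experiment 2 region was chr2:181406701-181409100, upstream of the start on the minus strand. Foxa3, a forkhead factor of liver, had 61.6% and 61.8% against 33.0% and 44.3%. Lbx1, which acts in migrating muscle precursors, had 64.9% and 81.6% against 20% and 21.0%, and the knockout libraries of experiment 1 covered 13.4% and 14.4% of its promoter. Gata2, a factor of blood stem cells, had 76.5% and 61.8% against 14.0% and 17.0%. In these 4 genes the experiments did not overlap. Among signals, Shh had 82.2% and 76.0% against 33.0% and 35%, and Wnt9b, which acts in kidney development, 84.2% and 88.0% against 19.3% and 51.7%. Slit3, an axon guidance ligand, had 82.0% and 83.6% against 36.5% and 25.5%, and Wnt7a 81.0% and 80.1% against 16.0% and 19.0%. At these 4 signal genes the experiments did not overlap either. Over the 470 genes marked in both, median coverage was 70.7% and 71.4% in experiment 1 and 21.0% in each experiment 2 library. A gap was thus not particular to these lists. The share of those genes without overlap was not counted, and the genes named were picked for high coverage. The lack of overlap at them is therefore not read as a trait of these genes. Replicate 2 of the experiment 2 knockout covered 21% of the Shh promoter.

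The blood genes marked in both were Gfi1b, Ikzf3, Irf8 and Slc4a1. Gfi1b, a repressor of the erythroid and megakaryocyte lineages, had 100% in both libraries of experiment 1 and 17.0% and 38.0% in experiment 2. Ikzf3, a lymphoid zinc finger factor, had 100% in both against 20% and 21.0%. Irf8 had 100% and 87.4% against 7.86% and 43.9%. Slc4a1 had 79.5% and 81.1% against 34.0% and 24.7%. The channel genes Chrna4, a nicotinic receptor subunit, and Cacna1g, a T-type calcium channel, had 32.0% and 15.0%, and 31.0% and 18% in experiment 2, with 84.6% and 86.1%, and 74.5% and 73.6% in experiment 1. Krt17, a keratin of basal epithelium, had 68.6% and 72.9% against 11% and 15.0%, and the experiment 1 knockout covered 37.8% and 100% of its promoter.

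Among the Polycomb genes marked in both, Cbx2 and Cbx8 encode chromodomain subunits of PRC1 and are neighbours on chromosome 11. Cbx2 had 42.0% and 44.3% against 26% and 30%. At Cbx8 the experiments overlapped, with 24.5% and 15.0% against 9.66% and 27.7%. Cdkn1a, which encodes the cell cycle inhibitor p21, had 95.5% and 95.3% in experiment 1 and 72.5% and 56.5% in experiment 2. Cdk4, a cyclin-dependent kinase, had 33.2% and 31.2% against 26.2% and 17.2%, and the experiment 1 knockout covered 39.3% and 27.4% of the same window. Zfp593 had 29.0% and 21.1% against 20.1% and 22.1%, and the experiments overlapped there. Of the 5 olfactory receptor genes, the highest in coverage was Olfr1410 with 100% in both libraries of experiment 1 and 31.0% and 39.3% in experiment 2. Olfr70 and Olfr71 share 1 experiment 1 region, and Olfr156 had 95.9% and 88.9% in experiment 1 and 19.0% and 14.0% in experiment 2.

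The widest experiment 2 regions at promoters shared by both experiments lay at Tgm2 (5100 bp), Prss22, AF251705, Pgf, Adamtsl2, Gm7030 with H2-T9, which have the same start, and Ace. Tgm2, a transglutaminase, had 96.7% and 95.6% in experiment 1 and 79.6% and 82.6% in experiment 2, with its region at chr2:157968701-157973800. Prss22, a serine protease, was the one of these at which the experiments overlapped near the top, with 81.2% and 73.0% against 73.7% and 83.7%. Adamtsl2 had 100% in both libraries against 95% and 82.0%, and AF251705 100% in both against 89.0% and 84.0%. Ace, the angiotensin-converting enzyme, had 67% and 75.3% against 42.2% and 44.2%. Pgf, a placental growth factor, was marked only at the edge of the window, with 26% and 18.9% against 0% and 8.92%. At 5 of these 8 genes both experiment 2 libraries exceeded 40%, which the choice by width of the experiment 2 region favours. Over the 470 genes marked in both, the median coverage was 21.0% in each experiment 2 library.

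Among genes marked in experiment 1 alone, the 6 with the highest coverage (100% in both libraries) and the widest regions were Skap1, Lgr6, Evx1, Olfr1411, Olfr1412 and Olfr1413. Skap1 had 31.9% and 0% in experiment 2, and Lgr6, a receptor for R-spondins, 27.1% and 0%. Evx1 and Olfr1412 had 0% in both. Olfr1411 had 52.9% and 0%, and Olfr1413 had 0% and 13.0%. The 3 olfactory receptor genes and Olfr1410 lie in 1 region of 45360 bp (chr1:94464929-94510288). In 4 of the 6, then, a single library of experiment 2 had a peak at the promoter. In the Ezh1 rescue, mapped with the antibody of experiment 2, the promoters of all 6 were covered to 97.0% or more, and in the Ezh2 rescue to between 43.8% and 96.9%.

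Genes marked in experiment 2 alone were few. A promoter peak in a single library of experiment 1, or in both at different positions, was present at 34 of the 85, beside 971 of 16877 genes marked in neither. Of the 6 with the highest coverage, Nat8 had 53.0% and 58.0% in experiment 2 and 52.2% and 0% in experiment 1. Abcg5, a sterol transporter, had 41.0% and 43.0% against 30.2% and 3.82%, and Fam101a 31.0% and 46.0% against 76.0% and 0%. Ppp1r1b, which encodes an inhibitor of protein phosphatase 1, had 54.0% and 25% against 9.62% and 0%, and Gm11710 42.0% and 29.0% against 0% and 3%. Plxdc1 was the exception without a promoter peak in either library of experiment 1, with 40.9% and 48.9% in experiment 2. Its gene body (chr11:97784552-97847758) held 12 and 13 peaks of the experiment 2 libraries and 10 regions, all 10 private, against 1 and 0 peaks in experiment 1. The Ezh1 rescue had 2 peaks there and the Ezh2 rescue 7, and the knockout lists of experiment 1 had 0. Private regions of experiment 2 were unevenly spread: of 503 windows of 1 Mb that held any of the 890, 324 held 1 and 28 held 5 or more. All 3936 regions of experiment 2 lay in 958 windows, so an uneven spread was not particular to the private ones. The window around Plxdc1 (chr11:97000001-98000000) had 32 experiment 2 regions, 14 of them private, and only 15 experiment 1 regions. A window on chromosome 8 (chr8:126000001-127000000, with Acta1 and Galnt2) had 34 and 23, next to 57 experiment 1 regions.

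Of further genes that the study discusses, Dab2ip, a Ras GTPase-activating protein, had 71.5% and 80% in experiment 1 and 16.7% and 12% in experiment 2, at positions that did not overlap between replicates. Foxf1a, a mesodermal forkhead factor, had 77.5% and 77.3% against 17.0% and 0%. Slit2 had 39.6% and 35.4% and Cpa6, a carboxypeptidase, 43.0% and 16.3%, and neither had a peak in experiment 2. Myc had 31.2% and 21.5% against 0% and 16.0%, with 8.48% and 8.22% in the experiment 1 knockout. Cdkn2a, Ezh2 and the actin gene Actb had 0% in all 4 libraries, and Ezh1 had 12% in replicate 2 of experiment 2 only. For Cdkn2a a single start was used, at the upstream end of the annotated gene. The study measured both p16 and p19 transcripts of this locus, and other starts in it were not examined here.

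Private regions were seen again in lists made with the other antibody or from other cells of the clone. Of the private regions of experiment 1, 33779 (77.6%, 95% Wilson interval 77.2 to 78) met a peak of the Ezh1 rescue, which was mapped with clone 7b11 and sequenced on the HiSeq, and 46.4% met one of the Ezh2 rescue. Shared regions of experiment 1 did so in 98.0% and 95.5%. These lists covered 10.6% and 3.35% of the autosomes, more than the experiment 2 wild type, and the midpoint alone of private regions lay under their peaks in 64.0% and 21.3%. The methods state a scaling coefficient for the Ezh1 rescue, and each rescue has 1 list with no replicate. The share of private regions that met an Ezh2 rescue peak rose with their width from 21.9% to 97.8% and with their GC content from 20.8% to 74.4%. The share that met an Ezh1 rescue peak rose from 62.4% to 97.5% and from 45.7% to 95.9%. A wide region meets a peak more easily, and the share of bases by width was not computed for the rescues. Of the 890 private regions of experiment 2, 82.8% met the Ezh1 rescue and 67.8% the Ezh2 rescue, and 98 (11%) met neither. With experiment 1, 622 (69.9%) met no peak of either library, 28.9% met a peak of 1 library (165 of replicate 1 and 92 of replicate 2) and 11 met both at positions that did not overlap. The median distance of a private experiment 2 region from the nearest experiment 1 region was 5972 bp, and 46.4% lay within 5000 bp.

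Knockout lists met a small share of the regions, which is read against what each list covered. The methods state a scaling coefficient for the knockout, so the size of these lists may depend in part on it. The experiment 1 knockout lists, with 36427 and 55489 autosomal peaks over 1.01% and 2.37% of the autosomes, met 4.14% and 7.33% of shared and 2.67% and 5.38% of private experiment 1 regions. By midpoint the order was the reverse, with 0.123% and 1.27% of shared and 0.986% and 2.71% of private regions under peaks of these lists. The private shares were close to the covered shares, and the shared ones were below them. Of experiment 2 regions the knockout lists of experiment 1 met 0.755% and 2.20% of the shared and 1.01% and 2.47% of the private ones. The experiment 2 knockout lists, with 29 and 382 autosomal peaks over 0.00246% and 0.0201% of the autosomes, met 0.558% and 2.30% of shared experiment 2 regions, above the covered shares. Of its 890 private regions they met 0, which allows a share of up to 0.430% (Wilson), and 4 (0.449%).

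Called peak sequence was spread differently over the chromosomes in the lists, which differed 12-fold in coverage. Of the covered autosomal sequence, chromosome 11 held 7.93% and 7.18% in experiment 1 and 11.6% and 12.8% in experiment 2. Chromosome 1 held 8.81% and 8.72% against 12.1% and 12%, and chromosome 17 held 5.05% and 4.73% against 7.15% and 7.16%. Chromosome 14 held 3.83% and 4.25% against 1.48% and 1.33%, and chromosome 13 held 3.34% and 3.67% against 2.06% and 1.78%. On each of the 19 autosomes the libraries of one experiment lay apart from those of the other, 7 being higher in experiment 2 (1, 2, 5, 10, 11, 17 and 19) and 12 higher in experiment 1, the shares being bound to add up to the same total. Chromosomes 11 and 7 had the highest mean GC (43.8% and 43.0%), and experiment 2 had 1.61 times the share of experiment 1 on chromosome 11 and 0.751 times on chromosome 7. On chromosomes 19, 9 and 17, next in GC (42.7%, 42.7% and 42.6%), it had 1.17, 0.769 and 1.46 times the share. The relation of GC to this ratio over the 19 autosomes was not tested.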

How the data were processed

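H3K27me3 ChIP-seq peak lists of 4 wild-type libraries were compared, 2 in each of 2 experiments, grouped by their labels. The authors digested chromatin with micrococcal nuclease, aligned single-end reads to mm9, removed duplicates, down-sampled the reads to a common number, applied coefficients to the knockout and the Ezh1 rescue, and called peaks per sample against input DNA. Tools listed in the submitters' notes were MACS2 2.0.10, HOMER 3.17, Bowtie2 2.1.0, Bowtie 0.12.8 and SAMtools. The deposited lists give chromosome, start and end only, without a score or count, and read depth per peak is therefore unknown. The paper's methods also list an antibody against H3K27me2/3 for ChIP-seq. The antibodies named here are those of the labels.

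Duplicate lines (1 in each experiment 2 list) and sex chromosomes were left out. Overlap meant at least 1 bp. Coordinates are 1-based, and genes and sequence come from GENCODE on NCBIM37 (mm9). Of the members named in the gene lists, 3 (Sox1, Spi1 and Emc7) had no match. Annotation classes were given by midpoint. Libraries were compared by an exact two-sided permutation test, regions by counts with 95% Wilson intervals. Genes named were up to 4 per list marked in both experiments with the highest coverage, the 8 with the widest experiment 2 region, 6 marked in each experiment alone, and genes the study discusses. The 5 widest regions of each kind were considered. One gene that this rule names is not reported here. Members, lists and comparisons were chosen with earlier results of these data known. Alternatives covered overlap, width, joining, replicates, promoter windows and pairing. Overlap code was tested on simulated data. Python 3.11.15, NumPy 2.4.6, pandas 2.3.3 and matplotlib 3.10.9 were used.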

Additional observations from a re-analysis of the deposited data

Results flagged for a closer look

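Peaks on chromosome X were outside the comparison of autosomes and exceeded the knockout lists of the same experiment. They covered 1656 and 2716 kb in the wild-type libraries of experiment 1 (1413 and 1883 peaks), against 18.5 and 33.5 kb in its knockout. In experiment 2 they covered 36.9 and 25.4 kb (55 and 33 peaks), against 0 in both knockout lists. These were 1.02% and 1.68% of chromosome X in experiment 1 and 0.0228% and 0.0156% in experiment 2, below the share of the autosomes covered in each library. Single lists were compared and no test was run, and the methods state a scaling coefficient for the knockout.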

How the results depend on the processing

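The share of experiment 2 regions that were shared was 73.0% with an overlap of 50%, 72.8% by midpoint, 79.7% with peaks of at least 1000 bp, 74.5% with peaks of at least 550 bp, 73.2% with the union of replicates and 66.5% to 80.3% with 1 library left out. The share of experiment 1 regions was 0.705%, 1.48%, 2.88%, 7.06% and 14.5% under the same settings, 6.76% with peaks under 1000 bp apart joined, and 3.23% to 18.1% with 1 library left out. The width ratio of shared to private regions in experiment 1 reversed to 0.819 with an overlap of 50%, a rule that few wide regions can meet. It was 2.64 at both width minimums, 5.23 with the union and 2.97 to 6.33 with 1 library left out. In experiment 2 it was 1.33 with joined peaks and 1.14 to 1.23 with 1 library left out.

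The GC difference in experiment 1 was 4.91 points with an overlap of 50%, 4.01 with peaks of at least 1000 bp, 2.34 with the union and 1.95 to 3.55 with 1 library left out. In experiment 2 it was -0.71 in the report, -1.05 and -0.052 at 1000 bp and with the union, and -0.97 to 0.24 with 1 library left out, reversing to 0.24 without replicate 2 of experiment 2. The cause was not tested. The promoter excess of shared regions in experiment 1 was 1.17 and 5.95 points with promoter windows of 1000 and 5000 bp, 16.8 points by any overlap with a promoter (chosen after seeing the data), 13.9 with an overlap of 50%, 3.88 and 1.94 at 1000 and 550 bp, 3.6 with joined peaks and 1.16 to 4.29 with 1 library left out. In experiment 2 it was 0.142 and 4.10 with the promoter windows, 3.57 by any overlap, 1.05 with joined peaks, 1.55 to 3.58 with 1 library left out, and reversed to -1.79 with peaks of at least 1000 bp. The cause was not tested.

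Genes marked in both numbered 253 and 712 with promoter windows of 1000 and 5000 bp, 1877 with a peak of either replicate, 172 with peaks of at least 1000 bp and 472 to 1256 with 1 library left out. Genes of experiment 2 alone numbered 358, 41 and 54 to 319 under the last 3 settings. Genes of experiment 1 alone stayed between 3200 and 4704. Private experiment 1 regions met Ezh1 and Ezh2 rescue peaks in 64.4% and 16.2% with an overlap of 50% and in 82.0% and 48% with peaks of at least 1000 bp.

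The labels number the replicates alike in both experiments but do not say that a number marks a shared culture or day. With the replicate block, by sign flips of the numbered differences, the 6 measures kept their differences (covered sequence -143.9 Mb) and gave p = 0.5 in an exact test, the smallest that 2 pairs allow. Deviations of same-numbered libraries from their group means had r = -0.023 across 21418 promoters, which are not independent. Of 162 alternative values, 3 reversed and 68 moved beyond the replicate or counting spread, or for gene counts by over 1.5 times. The other 91 include the library measures, counted by direction and side of the threshold alone, whose sizes did change. The difference in peak number was -33728 and that in median width -1102 bp with peaks of at least 1000 bp. The methods state that reads were down-sampled to a common number, and the lists hold no reads per peak, so a region missing from a list was not called and may still carry the mark, and peak calls near a threshold limit what private means.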

Other observations

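Genes without protein product followed the same pattern. Of 1232 lincRNA genes, 20.9% were marked at the start site in experiment 1 and 2.35% in experiment 2, close to the 20.8% and 2.59% of protein-coding genes. Pseudogenes (14.7% and 1.01% of 4055) and miRNA genes (13.8% and 1.29% of 1468) were lower in both. Processed transcripts had 22.6% and 3.20% of 2437, and snRNA genes 12.3% and 0.902% of 1331. Over these 5 classes between 84.2% (miRNA) and 91.7% (snRNA, 11 of 12) of the genes marked in experiment 2 were also marked in experiment 1.

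The lines of the experiment 2 lists are not ordered by position, and the sources used here do not give their order. Divided into 10 equal runs of lines in that order, a split chosen after seeing the data, the share of peaks in experiment 1 regions went from 76.3% in the opening run to 61.6% in the last in replicate 1 and from 77.0% to 62.5% in replicate 2. The share that met the other replicate went from 43.9% to 12.8% and from 53.8% to 18%. Median width went from 1000 to 600 bp in both, and the median GC of the middle 500 bp from 48% to 46.8% and from 49.6% to 48%. The lists of experiment 1 are sorted by position.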
